A study of Mus musculus with 6 samples.

Results

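The cadherins and protocadherins are surface proteins that hold cells together through calcium-bound extracellular repeats, and they were examined here as a family of 69 genes measured by 97 of the 55681 probes on the array. Members were all probes whose gene name on the array is Cdh or Pcdh followed by a number, or Pcdha, Pcdhb or Pcdhg with the number of a clustered gene, with the endothelial cadherin Cdh5 left out. The rule uses gene names alone, and the family itself was chosen with earlier results of these data known. Expression was measured in 6 samples of neonatal mouse cerebellum, with 3 biological replicates of A+/G+ cells (ACSA-2 positive, GLAST positive) and 3 of A-/G+ cells (ACSA-2 negative, GLAST positive), 50000 cells and 1 array of Cy3-labeled RNA per sample. All mice were wild type, given as strain CD1 and postnatal days 1 to 3 in the sample labels, whereas the study's methods give a C57BL/6 background, the day of birth or the day after it, and pooled cerebella of either sex. The A+/G+ cells were taken with magnetic beads against ACSA-2 (the surface antigen that is encoded by Atp1b2). The A-/G+ cells were taken for GLAST, the glutamate transporter encoded by Slc1a3, after depletion of cells that carried ACSA-2, L1CAM, PSA-NCAM, CD45 or Ter119. The sorts therefore differed in the cells that were depleted as well as in ACSA-2.

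Classical cadherins bind their own kind on the neighboring cell and link the membrane to actin through catenins, and type I and type II cadherins differ in their binding interface. Delta protocadherins are weaker adhesion molecules of the developing brain that act in cell sorting and axon growth, whereas the clustered protocadherins of the alpha, beta and gamma groups are used in combinations that give single neurons a surface identity. In the developing cerebellum, combinations of classical cadherins and delta protocadherins mark stripes of Purkinje cells and layers of the cortex, and Cdh2, which encodes N-cadherin, is the general cadherin of neural progenitors and astroglia.

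The members differed from gene to gene in direction. By limma with Benjamini-Hochberg adjustment over all probes, 9 member probes passed both an adjusted p of at most 0.05 and a 4-fold distance between the medians (named called below), which are the limits in the study's methods. Of these, 4 were higher in A+/G+ (Cdh9, Cdh12, Cdh13 and Pcdh11x), whereas 1.53% of all probes were called in that direction. The other 5 were higher in A-/G+ and represent 3 genes (Cdh4 with 3 probes, Cdh22 and Pcdh20), compared with 0.399% of all probes. With the methods' t-test in place of limma, 2 and 4 were called, compared with 0.875% and 0.217% of all probes. By that t-test Cdh9, Cdh12 and the third Cdh4 probe had adjusted p-values of 0.0849, 0.0518 and 0.0751. Without the size limit, 12 member probes were higher in A+/G+ (12.4%, against 4.65% of all probes) and 5 in A-/G+ (5.15%, against 4.64% of all probes), so that 17 passed in either direction, whereas 9.29% of all probes did. The median difference over the 97 probes was 0.40 on the log2 scale toward A+/G+, and that over all probes was -0.04. Several calls changed when 1 array was left out. Without A-/G+ replicate 3, 12 member probes were called higher in A+/G+ (2.62% of all probes were), and 1 and 2 were without A-/G+ replicates 1 and 2 (1.20% and 1.07% of all probes). Calls higher in A-/G+ fell to 2 without A+/G+ replicate 1, A+/G+ replicate 2 or A-/G+ replicate 1, and to 3 without A+/G+ replicate 3 or A-/G+ replicate 2, with 0.138% to 0.304% of all probes called in these omissions. With normexp background correction, no member probe was called higher in A+/G+ by limma (29 at an unadjusted p of at most 0.05) and 3 in A-/G+ (Pcdh20 and Cdh4 with 2 probes), compared with 0.42% and 0.0862% of all probes. All 9 probes called above kept an adjusted p of at most 0.05 there, but the difference of Cdh12 shrank from 2.46 to 0.45, that of Pcdh11x from 2.27 to 0.43 and that of the third Cdh4 probe from -2.06 to -1.24, and Cdh9 differed by 0.73. The scanner software marks the spots that it reads as well above background, and such probes are called above background here. On every array this held for 32.2% of all probes and for 28 of 97 member probes (28.9%). It held on no array for 48.0% of all probes and 28.9% of member probes, and on only some for 10981 of the 55681 probes and 41 of the 97. Of the 28 member probes, 1 was called toward A+/G+ and 5 toward A-/G+ (3 of these 5 read Cdh4), with a median difference of 0.14. All probes detected on every array had a median of -0.12, and 1.16% and 0.808% of them were called in these directions. Their shares past the adjusted p limit (limma) were 7.00% and 11.9% in these directions, and those of the 28 were 14.3% and 17.9%. Without any test, 30 member probes were higher on every A+/G+ array than on every A-/G+ array (12.7% of all probes were) and 10 the other way round (24.3% of all probes).

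Several measured facts of the arrays bear on all values below. The 75th percentile of the intensity before normalization was 332 to 334 in A+/G+ and 56.6, 113 and 251 in replicates 1, 2 and 3 of A-/G+. The probes above background numbered 26476 to 26653 per A+/G+ array and 18333 to 24726 per A-/G+ array. The A+/G+ samples shared slide 1 and the A-/G+ samples slide 2, so that a slide cannot be told apart from a fraction. When arrays were aligned on their 75th percentile instead of by quantiles, the median of all probes moved to -1.02 toward A-/G+, the calls toward A+/G+ and A-/G+ over all probes went from 851 and 222 to 777 and 2055, and calls among the members from 4 and 5 to 2 and 8. With the percentile taken over probes detected on all arrays they were 568 and 638 over all probes and 1 and 6 among the members. The median of the member probes was 0.08 with the first of these alignments. There, Cdh4 (brightest probe), Cdh22 and Pcdh20 differed by -2.30, -2.03 and -2.88, and Cdh13, Pcdh17 and Pcdh19 by 2.03, 1.47 and 1.07. These values are near those by quantiles given below. Relative to the median of all probes in that alignment, the same genes differed by -1.28, -1.01 and -1.87, and by 3.04, 2.49 and 2.08. The 12 astroglial markers listed for the cell type check were all above background on every array, and by limma 2 of them were higher in each fraction. Values below are normalized log2 signals, and the 3 arrays of each fraction limit the precision, since an exact permutation test of 3 against 3 cannot go below p = 0.1 (two-sided). In sorted bulk samples, fewer cells of a type and less RNA per cell cannot be told apart.

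Promoters are shown for 4 members that are above background in both fractions, because they let the sequences of genes on either side of the comparison be read next to each other. Pcdh17 and Pcdh19 were higher in A+/G+ without reaching the 4-fold limit, and Cdh22 and Pcdh20 were called higher in A-/G+. The sequences are the 250 bases before the annotated start, 5′ to 3′ on the strand of the gene, from RefSeq on GRCm38.p6. Capitals mark the GC box (GGGCGG) and the CCAAT box (CCAAT), each searched on both strands and not overlapping here. The windows are chr14:84443313-84443562 on the plus strand for Pcdh17, chrX:133688994-133689243 on the minus strand for Pcdh19, chr2:165234738-165234987 on the minus strand for Cdh22 and chr14:88471397-88471646 on the minus strand for Pcdh20.
Pcdh17: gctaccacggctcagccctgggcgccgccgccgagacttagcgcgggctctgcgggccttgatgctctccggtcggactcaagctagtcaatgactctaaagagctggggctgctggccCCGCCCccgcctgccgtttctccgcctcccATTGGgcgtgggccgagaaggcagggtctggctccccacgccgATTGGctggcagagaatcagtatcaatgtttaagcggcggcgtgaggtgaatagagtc
Pcdh19: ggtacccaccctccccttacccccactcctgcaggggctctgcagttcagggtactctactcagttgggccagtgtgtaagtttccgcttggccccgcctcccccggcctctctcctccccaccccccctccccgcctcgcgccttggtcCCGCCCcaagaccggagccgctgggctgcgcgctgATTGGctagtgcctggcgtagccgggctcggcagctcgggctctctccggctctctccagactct
Cdh22: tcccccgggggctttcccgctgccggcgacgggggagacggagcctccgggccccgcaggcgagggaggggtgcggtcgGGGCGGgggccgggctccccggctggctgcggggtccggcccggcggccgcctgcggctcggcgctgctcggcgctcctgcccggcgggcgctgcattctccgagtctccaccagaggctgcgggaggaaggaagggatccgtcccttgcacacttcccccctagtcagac
Pcdh20: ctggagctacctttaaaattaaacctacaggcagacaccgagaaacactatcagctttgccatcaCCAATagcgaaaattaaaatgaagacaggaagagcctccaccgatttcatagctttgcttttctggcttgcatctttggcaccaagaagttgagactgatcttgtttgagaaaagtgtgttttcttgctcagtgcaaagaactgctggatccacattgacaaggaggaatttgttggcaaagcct

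A GC box is a site for factors of the Sp family and a CCAAT box for NF-Y, both found at many promoters. The windows of Pcdh17 and Pcdh19 held both motifs, as do 11.0% of the 32817 windows in the RefSeq table. Those of Cdh8, Pcdh10 and Pcdh18, which did not pass the test, held both as well. That of Cdh22 held 1 GC box and no CCAAT box, and that of Pcdh20 held 1 CCAAT box and no GC box. Over all windows, 32.7% held a GC box and 33.8% a CCAAT box. The G and C content was 77.6% for Cdh22, 69.2% for Pcdh19, 64.8% for Pcdh17 and 42.4% for Pcdh20, and the median of all windows was 52.4%. The E-box CAGGTG, which is bound by Snail and Zeb repressors of cadherin genes, was in none of the 4 windows and in 17.2% of all windows. Of the 69 members, 22 had a start in the table, and the called genes Cdh4 and Cdh13 did not. Among these, 9 held a GC box, 14 a CCAAT box, 5 both, and 2 (Cdh7 and Pcdh15) the E-box in at least 1 of their windows. These matches describe letters, and no binding was measured.

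Among the type I classical cadherins, the R-cadherin gene Cdh4 was more than 4-fold higher in A-/G+ on each of its 3 probes, whereas Cdh2 was above background on all arrays and differed little. The brightest Cdh4 probe lies on chromosome 2 of mm9 from 179630828 to 179630887. It read 9.80, 9.93 and 9.92 in replicates 1, 2 and 3 of A+/G+ (the order used throughout) and 12.47, 12.29 and 11.66 in A-/G+. The fractions did not overlap, and replicate 3 was the lowest of A-/G+. The difference between the means was 2.26 log2 units with a standard error of 0.23 (adjusted p = 0.0107, limma), which is 5.16-fold between the medians.

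The second Cdh4 probe, from 179633818 to 179633877, read 8.73, 8.82 and 8.87 in A+/G+ and 11.08, 11.01 and 10.43 in A-/G+. The third, from 179581965 to 179582024, read 5.36, 5.58 and 5.87 in A+/G+ and 7.75, 8.23 and 7.00 in A-/G+. Both were higher on every A-/G+ array, with medians 4.56-fold and 4.50-fold apart and adjusted p-values of 0.0093 and 0.0323 (limma). All 3 probes are annotated to the same transcript, so they are repeated readings of 1 gene and not independent genes. The call was not kept in every omission of 1 array. The brightest probe had an adjusted p of 0.0529, 0.0554 and 0.0576 (limma) without A+/G+ replicate 1, 2 and 3, with medians still at least 5.15-fold apart. Its A+/G+ minus A-/G+ difference stayed at -2.21, -2.28 and -2.28. Over all probes, calls toward A-/G+ fell from 222 to 104, 77 and 97 in these omissions. The second probe had an adjusted p of 0.0512 (limma) without A+/G+ replicate 2. Its medians were 3.73-fold and 3.83-fold apart without A-/G+ replicates 1 and 2. With 1 array left out, the third was called only without A-/G+ replicate 3 (adjusted p = 0.0128, limma), and its adjusted p was 0.0598 to 0.126 otherwise.

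The brighter probe of Cdh2 read 12.51, 12.57 and 12.56 in A+/G+ and 12.30, 12.31 and 12.21 in A-/G+. The fractions did not overlap, but the difference of 0.28 (95% confidence interval 0.13 to 0.42) had an adjusted p of 0.0501 and medians 1.20-fold apart (limma). The other Cdh2 probe differed by 0.12 (95% confidence interval -0.35 to 0.58, adjusted p = 0.708, limma). The interval of the brighter probe excludes a difference as large as that of Cdh4.

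The remaining type I genes were dim. Cdh1, which encodes the epithelial E-cadherin and has 10 spots on the array, was not above background on any array. Cdh15, the M-cadherin of muscle and cerebellar granule cells, read 4.50, 4.99 and 4.52 in A+/G+ and 2.09, 3.07 and 4.23 in A-/G+, where it was not above background on any array (adjusted p = 0.199, limma). Cdh3, encoding P-cadherin, was above background on 3 A+/G+ arrays and 1 A-/G+ array, and its adjusted p was 0.765 (limma).

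**Figure D1:**
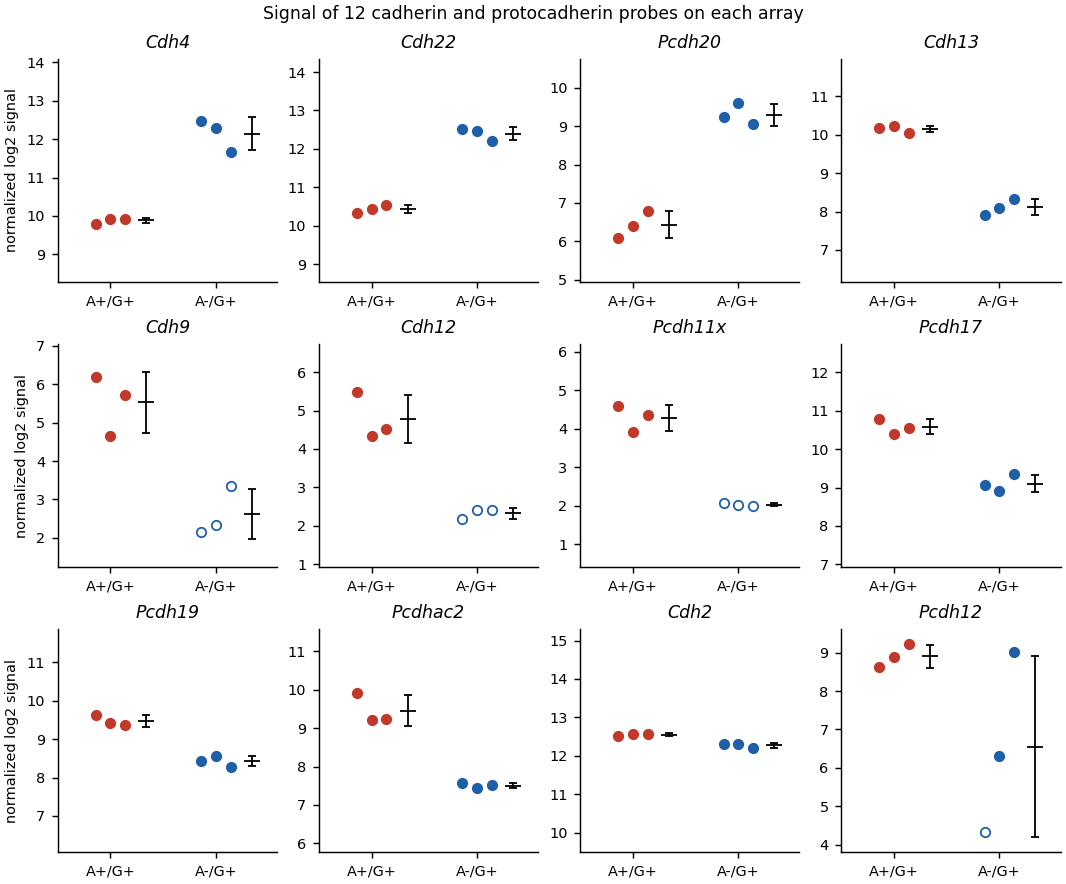
Normalized log2 signal (vertical axis, each panel spanning the same range of log2 units) of 12 member probes on the 3 A+/G+ arrays (red) and the 3 A-/G+ arrays (blue), with filled points above background, hollow points not, and the mean with its SD at the right of each fraction. Cdh4, Cdh22 and Pcdh20 sit higher on every A-/G+ array, Cdh2 differs by 0.28, and Pcdh12 runs from 4.33 to 9.01 within A-/G+.

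The type II cadherins moved in both directions. Of 12 genes, read by the probe with the highest mean signal, 2 rose in A+/G+ (Cdh9 and Cdh12), 1 was higher in A-/G+ (Cdh22), and 9 did not pass the test. Over all genes read in this way, 5.63% and 4.82% passed in these directions. The Cdh22 probe lies on chromosome 2 of mm9 from 164937057 to 164937116 and read 10.32, 10.44 and 10.53 in A+/G+ and 12.50, 12.47 and 12.20 in A-/G+. The fractions were well apart, and the spread within each was small. The means differed by 1.96 (standard error 0.11, adjusted p = 0.0038, limma), with medians 4.08-fold apart. The adjusted p was at most 0.0269 without any single array, but the medians were 3.95-fold apart without A+/G+ replicate 1, 3.72-fold without A-/G+ replicate 1 and 3.77-fold without A-/G+ replicate 2. Cdh22 is a cadherin of the brain whose pattern follows subdivisions of the neural tube.

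Cdh9 and Cdh12 were measured only in A+/G+, because no A-/G+ array had either above background. The Cdh9 probe (chromosome 15, 16785915 to 16785974, mm9) read 6.19, 4.66 and 5.73 in A+/G+ and 2.16, 2.35 and 3.36 in A-/G+. Set against the lowest signal that counted as above background on the A-/G+ arrays, the A+/G+ mean of Cdh9 was at least 1.54-fold higher (measured means 5.53 and 2.62, adjusted p = 0.0382, limma). The Cdh12 probe (chromosome 15, 21519202 to 21519261, mm9) read 5.50, 4.34 and 4.53 in A+/G+ and 2.16, 2.40 and 2.41 in A-/G+. Its measured means were 4.79 and 2.33 (adjusted p = 0.0194, limma), and the same bound gives no fold, because the A+/G+ level lies below what could have been detected on the A-/G+ arrays. With alignment on the 75th percentile, Cdh12 had an adjusted p of 0.063 and was not called, and Cdh9 had 0.0489 (limma). Neither call was kept in every omission of 1 array. With 1 array left out, Cdh9 was called only without A-/G+ replicate 3 and had adjusted p-values of 0.0611 to 0.142 otherwise, and Cdh12 lost the call without A+/G+ replicates 2 and 3 and A-/G+ replicates 1 and 2 (0.0544 to 0.0742, limma).

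Both genes were highest on the A+/G+ array of replicate 1 and next on that of replicate 3. The Purkinje cell markers Pcp2, Pcp4, Calb1, Car8 and Skor2 had the same order. So did the mean of all 10 Purkinje markers (8.40, 7.39 and 7.71 in A+/G+ replicates 1, 2 and 3). Means of the pan-neuronal markers (10.32, 9.85 and 9.69) and of the microglia markers (5.84, 5.12 and 4.27) were also highest on replicate 1, but next on replicate 2. Of 10 Purkinje markers, 6 passed the test by limma, all of them higher in A+/G+, as did 5.63% of all genes. Their signal, summed over the markers on the linear scale, was 12.47 to 13.84 in A+/G+ and 10.84 to 11.21 in A-/G+ on the log2 scale. Pcp2, a Purkinje-specific transcript, read 11.52, 9.85 and 10.48 in A+/G+ and 5.76, 5.80 and 5.34 in A-/G+, no A-/G+ array had Calb1, Car8, Skor2 or Foxp2 above background, and Ppp1r17 was above it on no array of either fraction. The part of Purkinje cells in the Cdh9 and Cdh12 signals was not tested.

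**Figure D2:**
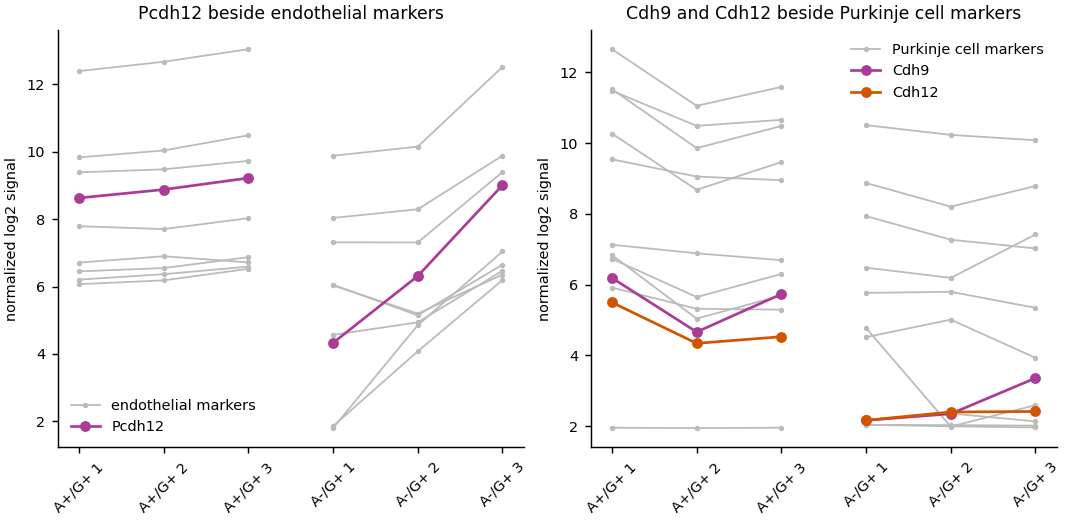
Normalized log2 signal (vertical axis) of Pcdh12 beside 8 endothelial markers (left) and of Cdh9 and Cdh12 beside 10 Purkinje cell markers (right) on each of the 6 arrays (horizontal axis). Lines join the values of a gene within a fraction and imply no order of replicates. Pcdh12 and the endothelial markers are highest on A-/G+ replicate 3 within that fraction, and Cdh9 and Cdh12 are highest in A+/G+ on replicate 1.

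Cdh6, Cdh10, Cdh11 and Cdh20 were above background on all 6 arrays and did not pass the test. Cdh6, a cadherin of early neural subdivisions, read 7.87, 7.83 and 7.86 in A+/G+ and 8.69, 9.02 and 8.08 in A-/G+. It was higher on every A-/G+ array, by 0.74 on average (95% confidence interval of A+/G+ minus A-/G+ -1.39 to -0.09, adjusted p = 0.163, limma). Cdh20 differed by 0.09 (95% confidence interval -0.41 to 0.60), Cdh10 by 0.34 (-0.24 to 0.92) and Cdh11 by -0.07 (-0.71 to 0.57). All 3 intervals lie within a 2-fold difference, but that of the second Cdh11 probe, above background on 5 arrays, does not (-1.21 to 1.26). Cdh24 was above background only on 1 array, of A-/G+ (measured means 2.40 and 4.27, adjusted p = 0.0622, limma). By the bound its A-/G+ mean was at least 1.62-fold higher, but that mean includes arrays on which it was not above background. Cdh7, Cdh8 and Cdh19 were above background on some arrays, and Cdh18 on none.

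Outside the classical groups, Cdh13 was higher in A+/G+. It encodes T-cadherin, which has no cytoplasmic tail and is held in the membrane by a lipid anchor. Its brighter probe (chromosome 8, 121837969 to 121838028, mm9) read 10.17, 10.22 and 10.05 in A+/G+ and 7.91, 8.11 and 8.32 in A-/G+. The lowest A+/G+ array was far above the highest of A-/G+, and the means differed by 2.03 (standard error 0.12, adjusted p = 0.00406, limma), with medians 4.18-fold apart. The adjusted p was at most 0.028 without any single array, and only without A-/G+ replicate 1 were the medians under the size limit, at 3.88-fold. A second Cdh13 probe, which matches another transcript, was not above background on any array. Cdh26 read 5.42, 5.58 and 6.15 in A+/G+ and 2.26, 2.59 and 5.14 in A-/G+ (adjusted p = 0.177, limma), with A-/G+ replicate 3 apart from the others. Cdh16, Cdh17 and Cdh23 were not above background on any array.

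The delta protocadherins, as grouped here, leaned to A+/G+. All 9 genes (Pcdh1, Pcdh7, Pcdh9 and Pcdh11x of delta-1, and Pcdh8, Pcdh10, Pcdh17, Pcdh18 and Pcdh19 of delta-2) were higher on every A+/G+ array than on every A-/G+ array, each gene read by its brightest probe. Among all genes read in the same way, 14.9% were, and 24% were higher on every A-/G+ array. Over all 17 probes of these genes 13 were, against 12.7% of all probes, and 5 of the 9 genes were above background on all arrays. Pcdh20, listed here with the other non-clustered protocadherins, was called the other way. The median difference over the 9 genes was 1.18, compared with -0.05 over all genes, and 3 of the 9 passed the test (Pcdh9, Pcdh17 and Pcdh19), compared with the 5.63% of all genes given above. With alignment on the 75th percentile the median of the 9 was 1.16 (2.18 relative to all probes), all of them higher in A+/G+, and with normexp background correction it was 0.83, again with all 9 higher. The 9 genes were read on the same 6 arrays and are not independent replicates.

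Pcdh17, a protocadherin of axons and synapses, read 10.79, 10.40 and 10.56 in A+/G+ and 9.06, 8.90 and 9.35 in A-/G+ (chromosome 14, 84933861 to 84933920, mm9). The difference was 1.48 (standard error 0.16, adjusted p = 0.0122, limma), which is 2.83-fold between medians. Without A+/G+ replicate 3 its adjusted p was 0.0632. Pcdh19, an X-linked gene in which variants cause an epilepsy syndrome, read 9.64, 9.41 and 9.37 in A+/G+ and 8.43, 8.55 and 8.29 in A-/G+ (chromosome X, 130122356 to 130122415, mm9). Both genes were clearly separated between the fractions but below the 4-fold limit. The difference of Pcdh19 was 1.05 (standard error 0.11, adjusted p = 0.0116, limma), with medians 1.98-fold apart and an adjusted p of 0.0554 without A+/G+ replicate 2.

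Among the other delta-2 genes, Pcdh10, known as OL-protocadherin, was the closest to the adjusted p limit. It read 11.10, 11.14 and 11.19 in A+/G+ and 10.47, 10.66 and 10.07 in A-/G+, a difference of 0.74 with an adjusted p of 0.06 (limma), and its second probe differed by 0.43. Pcdh18 differed by 0.47 (95% confidence interval -0.04 to 0.99, adjusted p = 0.254, limma). Pcdh8 read 7.67, 7.21 and 7.27 in A+/G+ and 5.10, 6.78 and 6.03 in A-/G+ (adjusted p = 0.147, limma), so that the spread within A-/G+ was larger than in A+/G+.

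Of the delta-1 genes, read by their brightest probes, only Pcdh1 was above background on all arrays. For each of the other genes, 1 of 3 probes passed the adjusted p limit. For Pcdh9, the brightest of 3 probes read 7.04, 7.26 and 7.36 in A+/G+ and 5.98, 6.54 and 5.93 in A-/G+, a difference of 1.07 (adjusted p = 0.0407, limma). That value passed only without A-/G+ replicate 2 (0.0262) when single arrays were left out, with 0.0642 to 0.15 otherwise. The second Pcdh9 probe and the third, which matches another transcript, were not above background on any A-/G+ array (adjusted p = 0.442 and 0.825, limma). For Pcdh7, which encodes the brain and heart protocadherin, the probe with the highest signal read 6.71, 6.66 and 6.56 in A+/G+ and 2.16, 4.89 and 4.72 in A-/G+ (adjusted p = 0.116, limma), whereas another probe passed with a difference of 1.74 (adjusted p = 0.032, limma). Each of them was above background on 1 A-/G+ array. The probe that passed differed by 0.57 with normexp, and its adjusted p was 0.074 with the methods' t-test. Without A-/G+ replicate 3 that probe was called, at 4.06-fold, and its adjusted p was 0.0404 without A-/G+ replicate 1 and 0.0813 to 0.125 without any other array.

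For Pcdh11x, an X-linked protocadherin, the called probe (chromosome X, 117515420 to 117515479, mm9) was not the brightest. It read 4.58, 3.92 and 4.36 in A+/G+ and 2.06, 2.02 and 1.99 in A-/G+, with measured means of 4.29 and 2.02 (adjusted p = 0.00659, limma). No A-/G+ array had it above background, and the A+/G+ level lies below the limit of detection there, so no fold is given. The call held without any single array, but not with alignment on the 75th percentile (adjusted p = 0.099, limma). The brightest Pcdh11x probe was higher on every A+/G+ array but above background on 1 A-/G+ array (adjusted p = 0.193, limma), and the third was above it on 1 A+/G+ array and none of A-/G+ (adjusted p = 0.306, limma). Pcdh1 read 8.02, 8.18 and 8.28 in A+/G+ and 6.61, 6.63 and 7.71 in A-/G+ (adjusted p = 0.111, limma), with A-/G+ replicate 3 nearest to the A+/G+ arrays.

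**Figure D3:**
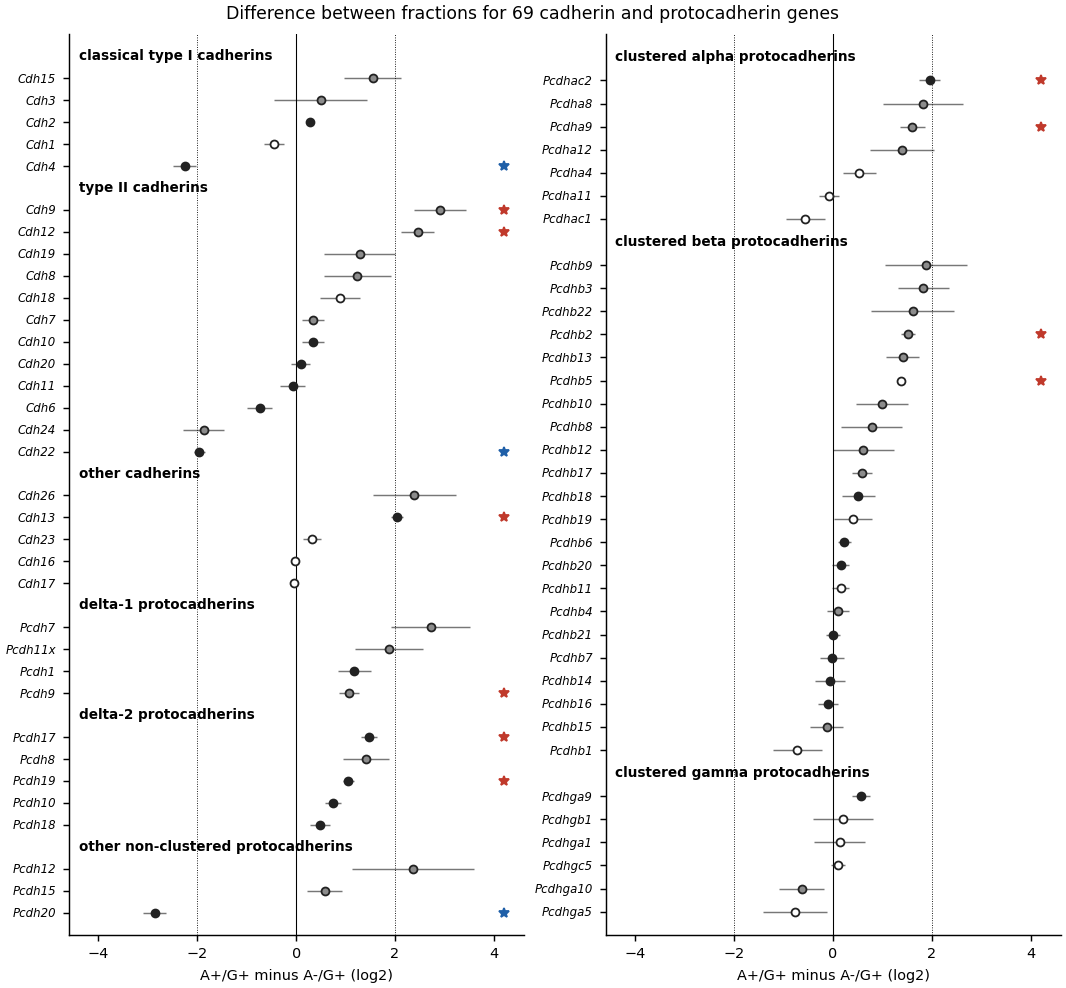
Difference A+/G+ minus A-/G+ (horizontal axis, log2 units, with the standard error of the limma fit) for the 69 member genes by subfamily, each read by its probe with the highest mean signal. Black points were above background on all 6 arrays, grey on some and white on none, dotted lines mark 4-fold, and stars mark an adjusted p of at most 0.05 (red higher in A+/G+, blue higher in A-/G+). All 9 delta protocadherins lie to the right of 0, and the beta genes that were measured on every array cluster near 0.

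Of the other non-clustered protocadherins, Pcdh20 had the largest difference toward A-/G+ among all member probes. Its probe (chromosome 14, 88865889 to 88865948, mm9) read 6.10, 6.40 and 6.79 in A+/G+ and 9.23, 9.61 and 9.05 in A-/G+. The 2 fractions were separated by more than 2 log2 units on every pair of arrays. The means differed by 2.86 (standard error 0.24, adjusted p = 0.00723, limma), with medians 7.10-fold apart, or 4.34-fold with normexp, and the call held without any single array.

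Pcdh12 and Pcdh15 did not pass the test. Pcdh12, a protocadherin of endothelial cells, read 8.63, 8.88 and 9.22 in A+/G+ and 4.33, 6.31 and 9.01 in A-/G+. Replicate 3 of A-/G+ lay within the A+/G+ range, and replicates 1 and 2 lay far below it, and the difference of 2.36 had an adjusted p of 0.353 (limma). Without A-/G+ replicate 3, Pcdh12 was called higher in A+/G+. All 8 endothelial markers were highest within A-/G+ on the same array. Their summed signal was 12.88 to 13.48 in A+/G+ and 10.58, 10.78 and 12.96 in A-/G+, their adjusted p-values were 0.227 to 0.342 (limma), each was above background on at least 1 A-/G+ array, and Cldn5, the claudin of the blood-brain barrier, read 9.88, 10.15 and 12.52 in A-/G+. The part of endothelial cells in the Pcdh12 signal was not tested. Pcdh15, a protocadherin of the hair cells of the inner ear, had 7 probes, of which 4 were not above background on any array, with adjusted p-values of 0.427 to 0.916 (limma).

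Some other cell type markers moved with the fractions beside these genes, and others did not. In A-/G+, 8 of 10 Bergmann glia markers were higher by limma and 1 was lower, with a summed signal of 14.85 to 15.30 against 14.47 to 14.66. The granule neuron markers had 14.71 to 14.96 against 14.12 to 14.36, with 2 of 10 higher in A-/G+ by limma and 7 of 10 on average higher in A+/G+. The A-/G+ sort depleted cells that carried L1CAM, by which the study detected granule neurons. In A+/G+, 4 of 8 pericyte and smooth muscle markers (11.21 to 11.35 against 8.57 to 9.90), 4 of 8 ependymal markers (12.33 to 12.84 against 10.69 to 12.51) and 3 of 8 oligodendrocyte lineage markers (13.88 to 14.16 against 11.55 to 12.68, with 1 other higher in A-/G+) were higher, besides the Purkinje markers given above. Their part in the differences of Cdh4, Cdh22, Pcdh20, Cdh13 and the delta protocadherins was not tested.

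The clustered protocadherins, 35 genes read by 38 probes, gave no called probe in either direction. The same was found with the methods' t-test, but the authors' table gave 1 call higher in A+/G+ (Pcdha9, 4.05-fold between medians) and alignment on the 75th percentile 1 higher in A-/G+ (the probe named for Pcdhga5, not above background on any array). Without the size limit 4 of the 38 probes were higher in A+/G+ by limma and 0 in A-/G+, whereas 4.65% and 4.64% of all probes were. At an unadjusted p of at most 0.05 there were 8 and 1, compared with 5949 and 7025 of the 55681 probes on the array. Without A-/G+ replicate 3, 4 of the 38 were called higher in A+/G+, as were 2.62% of all probes. Of the 35 genes, 9 were above background on all 6 arrays (25.7%, against 39.3% of all genes), and 11 were on none (31.4%, against 41.4% of all genes).

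In the alpha group, a variable first exon is joined to constant exons that all genes of the group share. The brightest alpha probe, named for Pcdhac2, is annotated to transcripts of 4 genes (Pcdha4, Pcdha9, Pcdhac1 and Pcdhac2) and read 9.91, 9.22 and 9.24 in A+/G+ and 7.57, 7.44 and 7.51 in A-/G+. Every A+/G+ array was higher, by 1.95 on average (standard error 0.21, adjusted p = 0.0121, limma), with medians 3.32-fold apart. Without A+/G+ replicates 2 and 3 the medians were 4.19-fold and 4.16-fold apart, past the size limit. The other Pcdhac2 probe read 4.43, 4.38 and 3.96 in A+/G+ and 2.00, 1.94 and 4.55 in A-/G+ (adjusted p = 0.379, limma), so that A-/G+ replicate 3 was above every A+/G+ array. Pcdha9 was above background on 3 A+/G+ arrays and none of A-/G+, with measured means of 3.98 and 2.38 (adjusted p = 0.0255, limma), no fold by the bound, and adjusted p-values of 0.0616 to 0.108 without any array but A-/G+ replicate 3. The probes named for Pcdha4, Pcdha11 and Pcdhac1 were not above background on any array.

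The beta genes have no constant part, and each of their 22 probes is annotated to 1 RefSeq transcript. Matches of these probes to transcripts of other beta genes were not tested. Of these, 7 were above background on all arrays (Pcdhb6, Pcdhb7, Pcdhb14, Pcdhb16, Pcdhb18, Pcdhb20 and Pcdhb21), and their differences ran from -0.11 to 0.51, with adjusted p-values of 0.414 to 0.984 (limma). Pcdhb21 read 8.83, 8.48 and 8.42 in A+/G+ and 8.49, 8.72 and 8.49 in A-/G+, a difference of 0.01 (95% confidence interval -0.36 to 0.38). The intervals of Pcdhb20 (-0.28 to 0.59), Pcdhb7 (-0.66 to 0.61) and Pcdhb16 (-0.64 to 0.43) also include 0, and all 4 intervals lie within a 2-fold difference.

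The beta genes that passed were at the limit of detection. Pcdhb5 read 3.37, 3.53 and 3.44 in A+/G+ and 2.09, 2.08 and 2.04 in A-/G+ (adjusted p = 0.00308, limma), but it was not above background on any array, and no fold is given. Pcdhb2 was above background on 1 A+/G+ array and none of A-/G+ (measured means 3.60 and 2.08, adjusted p = 0.00857, limma). With normexp background correction their differences were 0.14 and 0.09 and neither passed (adjusted p = 0.22 and 0.748, limma). Pcdhb3, with 10 spots per array, had an A+/G+ mean at least 1.31-fold higher by the bound (measured means 5.29 and 3.46), with an adjusted p of 0.11 (limma).

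Of the gamma group, 6 genes were read by 7 probes, the probes named for 4 of the genes were not above background on any array, and the adjusted p-values were 0.115 to 0.895 (limma). Pcdhga9 carries 2 probes that are above background on all arrays and that point in opposite directions. The first read 14.35, 14.49 and 14.45 in A+/G+ and 13.85, 14.20 and 13.56 in A-/G+, and the second 9.65, 9.51 and 9.71 against 10.60, 10.49 and 9.90. In each case the fractions did not overlap, with differences of 0.56 (adjusted p = 0.14, limma) and -0.71 (adjusted p = 0.115, limma). Each is annotated to transcripts of 4 genes, which include Pcdhga5 and Pcdhga6, so neither can be read as the level of Pcdhga9 alone.

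**Figure D4:**
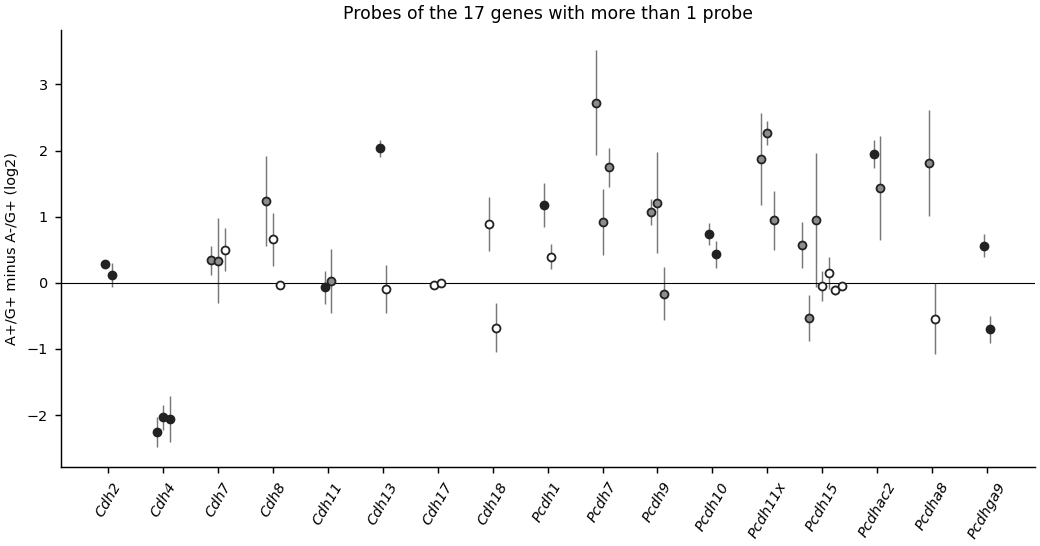
Difference A+/G+ minus A-/G+ (vertical axis, log2 units, with the standard error of the limma fit) for every probe of the 17 member genes with more than 1 probe, in order of mean signal within a gene. Black points were above background on all 6 arrays, grey on some and white on none. The 3 probes of Cdh4 lie at -2.26 to -2.03, and the probes of Pcdhga9 lie on either side of 0.

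Of the 17 genes with several probes, 9 had probes of both directions, but in 8 of these at least 1 probe was not above background on all arrays. Cdh4 was the only gene with more than 1 called probe. Probes of different member genes shared no exact run of 20 bases (4607 pairs, longest shared run 14 bases). This search does not find matches broken by mismatches or matches to other transcripts. By annotation, 5 member probes match transcripts of more than 1 gene.

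**Figure D5:**
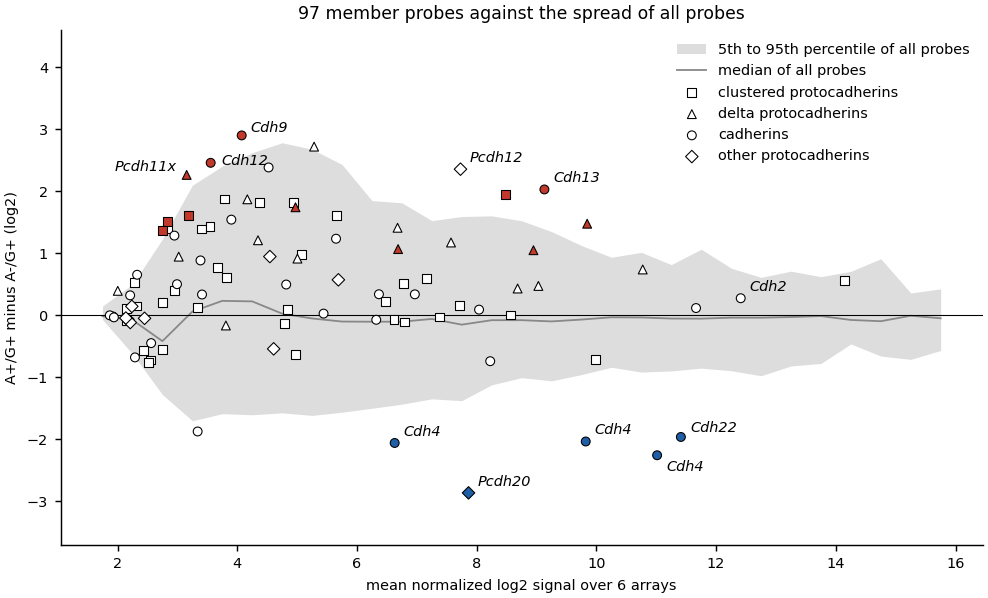
Difference A+/G+ minus A-/G+ (vertical axis, log2 units) against mean normalized log2 signal over the 6 arrays (horizontal axis) for the 97 member probes, with the median and the 5th to 95th percentile of all probes in bins of signal (grey). Filled points have an adjusted p of at most 0.05 (red higher in A+/G+, blue higher in A-/G+), shapes give the group, and called probes, Cdh2 and Pcdh12 are named. The probes of Cdh4, Cdh22 and Pcdh20 lie below the grey band, and Cdh13 lies above it.

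Genes that work with cadherins were read from lists of partners, 1 probe per gene. Of 14 catenins and other cytoplasmic linkers, 12 were above background on all arrays and 12 did not pass, while 10.5% of all genes passed in either direction. The junction genes Ctnna1, Ctnnb1 and Ctnnd2 differed by 0.21, -0.29 and 0.04. Arvcf, which encodes a catenin of the p120 family, read 8.62, 8.66 and 8.67 in A+/G+ and 7.77, 7.67 and 7.71 in A-/G+, higher by 0.94 (adjusted p = 0.00381, limma). Mllt4, which encodes the nectin linker afadin, read 5.63, 5.14 and 5.31 in A+/G+ and 7.39, 6.88 and 6.57 in A-/G+, a rise of 1.59 toward A-/G+ (adjusted p = 0.0278, limma).

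Of 22 other genes of the cadherin superfamily, 4 passed the test (18.2%, against the 10.5% of all genes), all but Celsr2 higher in A+/G+. Cdhr3, a cadherin of ciliated cells, was called and read 5.81, 5.15 and 5.67 in A+/G+ and 1.95, 1.93 and 1.90 in A-/G+, where it was not above background on any array (adjusted p = 0.00337, limma). The ependymal markers given above, from ciliated cells, moved the same way, and their part was not tested. Cdhr4 was higher by 2.40 (adjusted p = 0.036, limma) and Clstn3, a calsyntenin of synapses, by 1.56 (adjusted p = 0.0492, limma). Celsr2, a planar polarity cadherin, went the other way, with 8.43, 8.41 and 8.35 against 9.54, 9.80 and 9.70, a rise of 1.28 in A-/G+ (adjusted p = 0.00454, limma). The large cadherins Fat1, Celsr1 and Dchs1 were above background on all arrays and differed by 0.02, 0.37 and 0.07 without passing.

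Of 7 transcription factors that repress cadherin genes, 5 passed, in both directions, compared with 10.5% of all genes. Twist1 was called higher in A+/G+ (4.64, 4.77 and 4.58 against 1.84, 1.88 and 2.14, not above background in A-/G+, adjusted p = 0.00272, limma), and Snai1 and Snai2 were higher by 1.77 and 1.72 (adjusted p = 0.00406 and 0.0313, limma). Zeb2 and Tcf4 were higher in A-/G+ by 1.23 and 0.50 (adjusted p = 0.02 and 0.0425, limma). Of 8 meningeal fibroblast markers, 3 were higher in A+/G+ by limma, as were 5.63% of all genes. Their summed signal was 16.26 to 16.53 against 13.69 to 15.29. The part of these cells was not tested.

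All 13 genes of protocadherin promoter choice and chromatin loops were above background on all arrays. Of these, 1 passed, the DNA methyltransferase gene Dnmt3b, with a mean 0.57 higher in A-/G+ (adjusted p = 0.0281, limma). The loop factor Ctcf differed by -0.22 (adjusted p = 0.369, limma). Of 16 kinases, actin regulators and proteases, 2 were higher in A+/G+, Cyfip2 of the WAVE complex by 1.60 (adjusted p = 0.0175, limma) and the presenilin gene Psen2 by 0.40 (adjusted p = 0.0474, limma). These shares, 7.69% and 12.5%, are near the 10.5% of all genes. The sheddase gene Adam10, whose product cuts N-cadherin, differed by 0.04.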

How the data were processed

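Total RNA of 6 sorted samples was labeled with Cy3 and hybridized to Agilent mouse 1-color arrays. The deposited scanner files hold the processed signal intensity of each spot, which the authors obtained with Feature Extraction 10.7.3.1. The authors also deposited normalized log2 values of the same arrays in tabular form (38 empty cells), used as an alternative. Control and outlier spots were left out, log2 intensities were quantile normalized after the study's methods, spots of a probe were averaged, and fractions were compared with limma 3.58.1 (R 4.3.3), adjusted by Benjamini-Hochberg over 55681 probes with no filter on dim probes. A probe was called at an adjusted p of at most 0.05 with medians at least 4-fold apart. A gene was read by its probe with the highest mean signal. Where all arrays of a fraction were not well above background, the mean of the brighter fraction was set against the higher of the dim probe's signal and the lowest signal well above background, and no fold is given under 1. The probe positions are on mm9, as in the scanner files, and RefSeq windows are on GRCm38.p6, in which 69 of 69 member symbols were found. Python 3.11.15 was used for tables and figures. The fit was tested on simulated data. The members and lists were chosen with earlier results of these data known. Named were member genes with a called probe, those with an adjusted p of at most 0.05 alone, up to 4 of the brightest others well above background on all arrays in each subfamily, genes whose probes disagree, and from other lists called genes and up to 4 of the brightest. Other names were chosen after their values were seen. The labels do not say whether replicates are separate litters, so p-values measure the spread between these samples.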

Additional observations from a re-analysis of the deposited data

How the results depend on the processing

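The counts of called member probes, 4 toward A+/G+ and 5 toward A-/G+, depended on the processing. They were 2 and 8 with alignment of the arrays on their 75th percentile, 1 and 6 with that percentile taken over probes detected on all arrays (an alternative chosen after seeing the data), 0 and 3 with normexp background correction, 2 and 4 with the methods' t-test, and 2 and 3 of 69 genes with a gene's probes averaged. Over all genes averaged in this way, 1.91% and 0.370% were called. Member counts were 12 and 5 with no size limit and 11 and 5 with a 2-fold limit (3.23% and 2.41% of all probes). With 1 array left out they ranged from 1 to 12 and from 2 to 5. They were 4 and 5 of 61 with a filter on dim probes, where 4.53% and 0.824% of all probes tested were called. They were 4 and 5 with outlier spots kept (1.53% and 0.402% of all probes) and with trend and robust fitting (1.69% and 0.417%). The authors' table gave 5 and 5 (1.66% and 0.435% of all probes). No probe past the adjusted p limit changed direction under any alternative run. Several small differences did. Pcdhb21 was -0.0118 with normexp and ran from -0.122 to 0.0856 with 1 array left out. Pcdhb7 was 0.00986 with the percentile over detected probes and 0.0147 in the authors' table, and ran from -0.280 to 0.115 with 1 array left out. Over the same omissions Cdh11 ran from -0.275 to 0.184, Cdh20 from -0.0948 to 0.267 and Pcdhb16 from -0.255 to 0.0537. Pcdhga9 was -0.0722 as the mean of its probes. The cause was not tested. With the replicate number as a block, 0 and 0 member probes were called by limma, with 21 and 8 at an unadjusted p of at most 0.05. Over all 55681 probes, 0 and 0 were called in that setting too, so these counts say nothing particular about the members. The labels give no pairing beyond the number, and the deviations of same-numbered arrays correlated at 0.20, 0.11 and -0.11. Probes not well above background in a fraction have only a bound there, and the dimmer A-/G+ arrays limit what could be measured.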
